A study of Mus musculus with 8 samples.

Results

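The genes described here encode the nuclear subunits of the respiratory chain and of ATP synthase in muscle stem cells (MuSCs) from old mice. They were taken from the count table by rule: protein-coding genes on nuclear chromosomes whose symbols begin with Ndufa, Ndufb, Ndufc, Ndufs, Ndufv, Uqcr, Atp5 or Cox followed by a digit from 4 to 8, or read Cyc1, Sdha, Sdhb, Sdhc or Sdhd. The rule found 95 of the 55487 rows of the table. Of these, 84 were subunit rows, with 36 of complex I, 4 of complex II, 9 of complex III, 18 of complex IV and 17 of complex V, and 11 were genes that share the prefix without being a subunit. These 11 were the complex I assembly factors Ndufaf1 to Ndufaf8, Cox7a2l, Atp5s and Ndufa4l2. Ndufa4 was counted with complex IV, and Atp5o stood under 2 identifiers, the second with 0 counts in every library.

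MuSCs are the resident stem cells that repair skeletal muscle. Cells labelled Old and positive for CD34 and integrin alpha 7 after removal of CD31, CD11b, CD45 and Sca1 positive cells were sorted from male mice and grown for 72 hours in growth medium. The medium held either NAM/PN, the combination of nicotinamide and pyridoxine, at 1 mM, or 1% DMSO as the vehicle. There were 8 mice in 4 pools of 2 mice, and each pool gave 1 vehicle and 1 NAM/PN library, so that n = 4 for each condition and a shared number marks shared mice. Both conditions were old cells, and no young cells enter the values below. Because pools of whole cultures were sequenced, fewer cells that make a transcript and less transcript per cell cannot be told apart.

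Respiration passes electrons from NADH through complex I, or from succinate through complex II, to coenzyme Q, then through complex III and cytochrome c to complex IV, where oxygen is reduced. Complexes I, III and IV pump protons, and complex V (ATP synthase) uses the gradient to make ATP. Complexes I, III, IV and V join subunits read from the mitochondrial genome with nuclear ones, whereas complex II is nuclear throughout. Resting MuSCs hold few mitochondria, and their number and the reliance on respiration are known to increase as the cells are activated and differentiate. NAM is a precursor of NAD, and NAD accepts the electrons that complex I takes up as NADH.

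RNA was read from the 3′ end of transcripts, and the deposited values are raw read counts for each gene. Library totals lay between 6472484 and 10163101 counts. Expression is given below in CPM, the counts scaled to a common library size after TMM normalization, without division by transcript length, since a 3′ read does not depend on it. All members together took between 1.67% and 2.40% of the counts of a library. The table lists 0 for 4 members in every library (Cox4i2, Cox7b2, Cox8c and the second Atp5o row), and Ndufa4l2, an isoform of Ndufa4, was found in 1 library only, at 0.836 CPM in NAM/PN 2. The other 90 members passed the filter on low counts and are among the 12060 genes tested. MuSC and myoblast markers were abundant in every library, at 2918 to 3369 CPM in sum with vehicle and 2335 to 2929 CPM with NAM/PN, and Pax7, which defines the lineage, had 196 CPM ± 36.2 and 173 CPM ± 50.3 (SD, n = 4). Endothelial and immune markers summed to at most 29.5 CPM and 7.58 CPM, and the endothelial markers Flt1, Tie1, Cldn5 and Emcn and the leukocyte marker Ptprc were at 0 in every library.

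Vehicle 3 and NAM/PN 4 stood apart from the other libraries. A single ribosomal RNA gene took 18.7% of the counts in vehicle 3 and 5.22% in NAM/PN 4, against 9.09% to 11.6% in the other 6 libraries. The share of counts from the mitochondrial genome was lower in vehicle 3 and NAM/PN 4 than in the others, at 3.73% and 2.56%. The medians and summed levels of complexes I to V, and fold changes of some of the single genes that shifted, are given below also without them.

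The promoters of the members are shown first, because the set is known for shared control by nuclear respiratory factors. RefSeq promoter windows on GRCm38.p6, 250 bases before to 50 after the start of a gene, were found for 74 of the 95 members, in 79 windows. The core bound by nuclear respiratory factor 1 (NRF1), written as GCGCA and GCGC with 1 base of any kind between them, was searched on both strands and found in 25.3% of the member windows and in 4.6% of all 32851 windows. The ETS letters CCGGAAG, as bound by GABP, stood in 22.8% of member windows and 8.86% of all. CG dinucleotides numbered 19 in the median member window and 7 in the median window of all. The letters TCAAGGTCA, bound by estrogen-related receptors, were rare, at 2.53% against 0.423%. Muscle-type letters were near their share in all windows: the MEF2 letters (CTA and TAG with 4 bases between them) stood in 2.53% against 3.69%, and CANNTG (the E-box of myogenic factors) in 69.6% against 72.3%. TATAAA, which can lie within the MEF2 letters, stood in 10.1% against 13.6%. The following 30-base stretches show the first NRF1 match, in capitals, of 5 members whose values are given below, on the strand of the gene (Sdhd at chr9:50603909-50603938 minus, Sdha at chr13:74350319-74350348 minus, Uqcrc1 at chr9:108936643-108936672 plus, Cox6a1 at chr5:115349101-115349130 minus and Atp5h at chr11:115420041-115420070 minus).
Sdhd: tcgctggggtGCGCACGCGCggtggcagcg
Sdha: cgtttacaggGCGCAGGCGCaccaccactc
Uqcrc1: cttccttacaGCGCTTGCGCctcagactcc
Cox6a1: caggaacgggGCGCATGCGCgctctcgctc
Atp5h: gaccccgacgGCGCAGGCGCcgcgcccgcc
A match is a description of the letters and not a measured binding site, and expression of these 5 genes did not pass the test in either direction.

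The question was whether NAM/PN altered the messenger RNA of the respiratory machinery in old MuSCs. With edgeR's quasi-likelihood test and Benjamini-Hochberg adjustment over all 12060 genes, 0 of the 90 members passed an adjusted p of 0.05, where 1.28% of all genes did (0.282% higher and 0.995% lower with NAM/PN). DESeq2 called 1 member, Cox8b (1.11% of the members against 2.4% of all genes). At an unadjusted p of 0.05 there were 3 members (Cox8b, Sdhd and Ndufaf3), or 3.33% of them, against 9.28% of all genes. Vehicle and NAM/PN values were fully apart in 2 members that were higher with NAM/PN (Sdhd and Ndufaf7, 2.22% against 2.79% of all genes) and in 1 that was lower (Cox8b, 1.11% against 4.42%).

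The fitted changes were small and mostly just below 0. The log2 fold change (NAM/PN over vehicle) was above 0 in 36 of 90 members (40% against 49.8% of all genes) and below 0 in 54 (60% against 50.2%), and its median was -0.045 against -0.0022. Scaling to library totals moved both medians up by about the same step, to 0.013 and 0.055. The 95% interval of the fold change lay within 2-fold in either direction in 73 of the 90 members, and within 1.5-fold in 44, against 4867 and 1388 of the 12060 genes. Most members were abundant, 72 of them with an average log2 CPM above 6. In these, the median size of the log2 fold change was 0.11 and its 90th percentile 0.35, against 0.19 and 0.52 in the other 2968 genes of that abundance, with median standard errors of 0.19 and 0.21. Of the 72 members, 68 had intervals within 2-fold and 43 within 1.5-fold, against 2761 and 1267 of all 3040 genes of that abundance. The fold change was above 0 in 26 of the 72 and below in 46, with a median of -0.0556. Among the 3040 genes it was above 0 in 1683 and below in 1357, with a median of 0.0395. All 4 pools were higher with NAM/PN in 5 members (5.56% against 8.49% of all genes) and lower in 7 (7.78% against 10.6%). Without vehicle 3 and NAM/PN 4 the median of the members was -0.15, against -0.0065 for all genes, and 0 members passed the test.

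**Figure D1:**
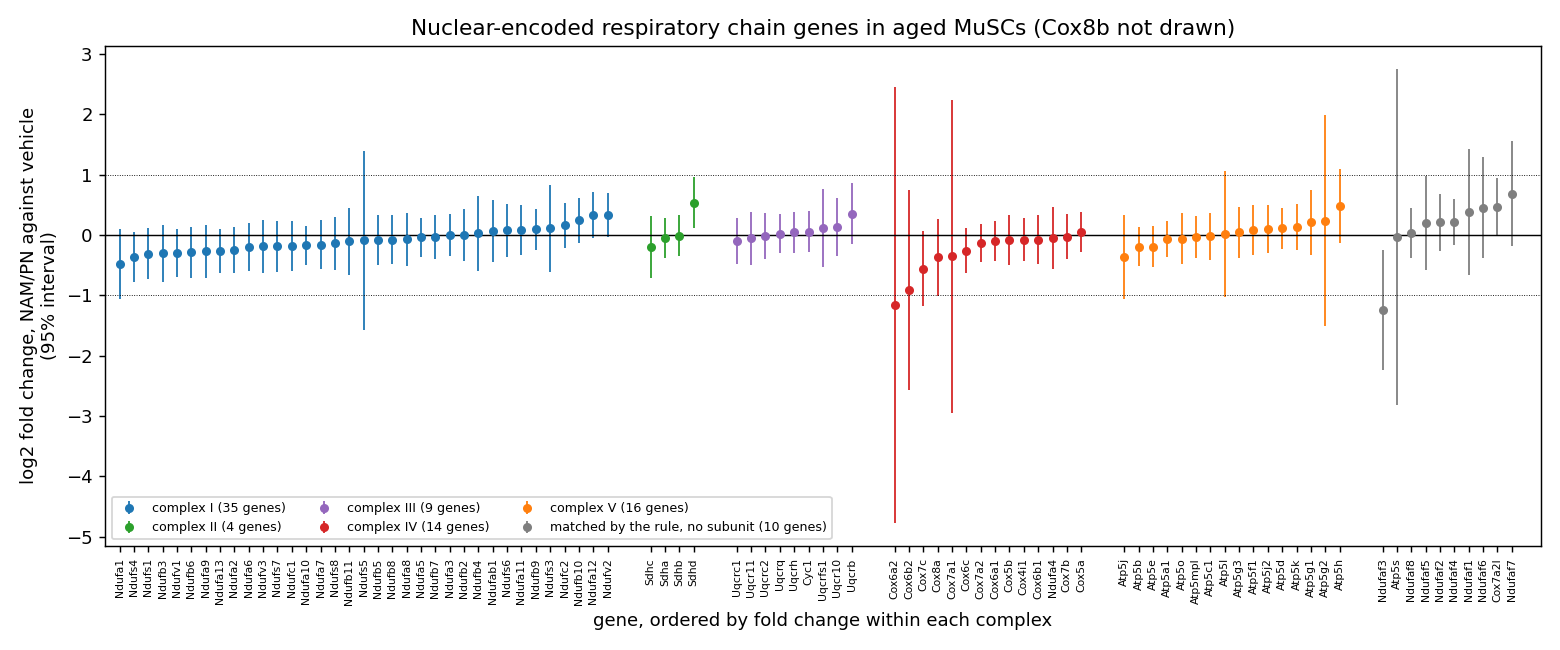
Log2 fold change of NAM/PN against vehicle for the tested members reported here, ordered within each complex, with 95% intervals from edgeR's quasi-likelihood fit (n = 4 libraries per condition). Most points lie within the dotted lines that mark a 2-fold change, with Ndufaf3 and Cox6a2 beyond the lower one, and wide intervals belong to genes of few counts such as Cox6a2, Cox7a1 and Atp5s; Cox8b, at 0 counts in all NAM/PN libraries, is not drawn.

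Summed over its subunits and over all 8 libraries, no complex differed between conditions by more than the larger of the 2 standard deviations, but for complexes I, IV and V this rested on vehicle 3 and NAM/PN 4. The subunits of complex I summed to 6379 CPM ± 294 (SD, n = 4) with vehicle and 6060 CPM ± 566 with NAM/PN, a ratio of means of 0.95. Complex II gave 929 CPM ± 136 and 953 CPM ± 76.2 (ratio 1.03), and complex III 2277 CPM ± 130 and 2348 CPM ± 280 (ratio 1.03). Complex IV gave 4067 CPM ± 609 and 3721 CPM ± 220 (ratio 0.915), and complex V 7484 CPM ± 1133 and 7409 CPM ± 393 (ratio 0.99). The ranges of vehicle and NAM/PN libraries overlapped for each of the 5. Without vehicle 3 and NAM/PN 4 the ratios were 0.886, 0.992, 0.962, 0.834 and 0.903 for complexes I to V. The remaining 3 libraries of each condition then no longer overlapped in complex I, at 6457 to 6617 CPM with vehicle and 5721 to 5830 CPM with NAM/PN. Nor did they in complex IV, at 4248 to 4586 CPM against 3522 to 3835 CPM, or in complex V, at 7731 to 8428 CPM against 6943 to 7496 CPM, while complexes II and III still overlapped. Vehicle 3 was the lowest of the 8 libraries in the sums of complexes II, IV and V, at 733, 3186 and 5842 CPM. In complexes I, IV and V, vehicle 3 was the lowest vehicle library and NAM/PN 4 the highest NAM/PN library. Leaving them out, a choice made after the values were seen, removed the libraries nearest the other condition. The separation of the rest is therefore largely built in, and no conclusion is drawn from it.

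**Figure D2:**
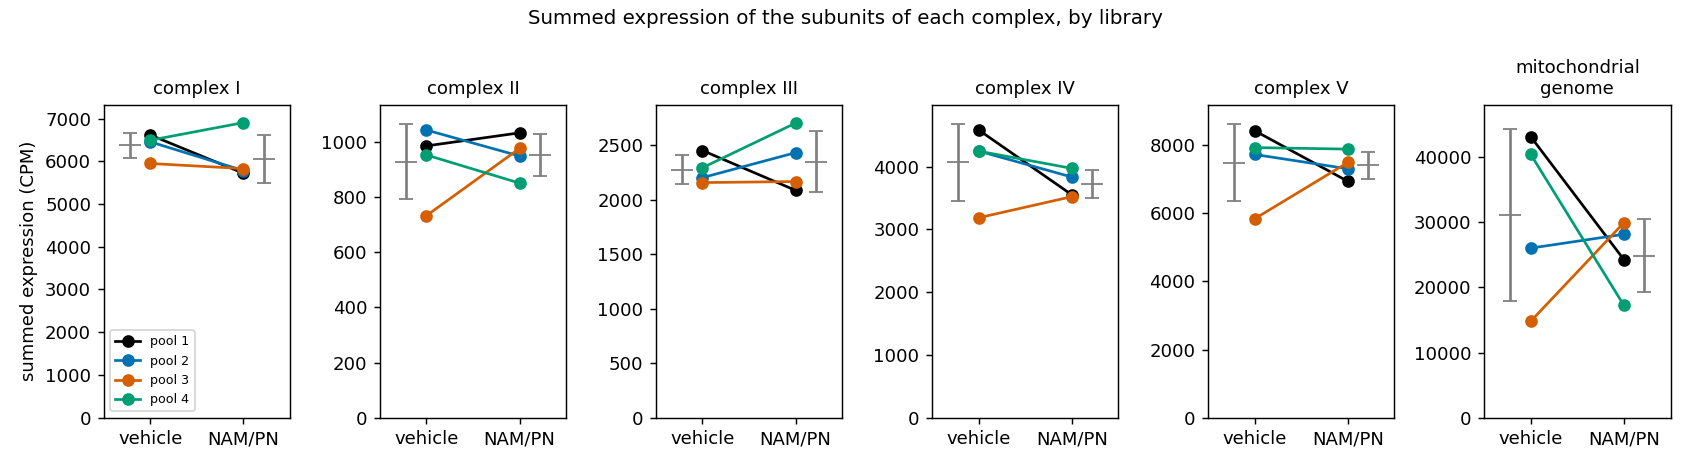
Summed expression in CPM of the nuclear subunits of complexes I to V and of the subunits read from the mitochondrial genome, for each library, with lines joining the libraries of a pool and grey bars giving mean ± SD (n = 4). The vehicle and NAM/PN libraries overlap in every panel, and vehicle 3 is lowest in complexes II, IV and V and in the mitochondrial panel.

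Complex I, the NADH dehydrogenase, had 36 subunits tested, 11 of them with a fold change above 0 and 25 below, with a median log2 fold change of -0.089, or -0.22 without vehicle 3 and NAM/PN 4. None passed the test, and 34 had intervals within 2-fold. The 7 core subunits, which carry the flavin and the iron-sulfur clusters, had 2 above and 5 below 0, with a median of -0.14. Ndufv2, a core subunit with an iron-sulfur cluster, had 151, 147, 139 and 139 CPM in vehicle 1 to 4 and 204, 181, 196 and 145 CPM in NAM/PN 1 to 4. It was higher with NAM/PN in all 4 pools, with overlap only through NAM/PN 4, and its log2 fold change was 0.33 (SE 0.17, adjusted p = 0.613). Its partner in the NADH-binding module, Ndufv1, which holds the flavin, had 229, 191, 248 and 202 CPM with vehicle and 144, 161, 160 and 240 CPM with NAM/PN. Ndufv1 was lower in 3 of 4 pools, with a log2 fold change of -0.30 (SE 0.19, adjusted p = 0.743), running from -0.49 to -0.22 when 1 library was left out, the former without NAM/PN 4. Ndufs1, the largest subunit of that module, ranged from 110 to 192 CPM with vehicle and from 92.0 to 136 CPM with NAM/PN, and its log2 fold change was -0.31 (SE 0.20, adjusted p = 0.755), running from -0.43 without vehicle 1 to -0.16 without vehicle 3.

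Among the accessory subunits of complex I, which surround the core, Ndufa2 had the most counts. It had 470, 478, 527 and 497 CPM with vehicle and 361, 366, 337 and 593 CPM with NAM/PN. NAM/PN 1 to 3 lay below every vehicle library and NAM/PN 4 above them all, and the log2 fold change was -0.25 (SE 0.18, adjusted p = 0.791), -0.16 without NAM/PN 3, -0.48 without NAM/PN 4 (adjusted p = 0.132) and -0.45 without vehicle 3 and NAM/PN 4 (adjusted p = 0.0609), none past the threshold. Ndufb8, also an accessory subunit, was split alike, with 298 to 308 CPM in the vehicle libraries, 220 to 258 CPM in NAM/PN 1 to 3 and 430 CPM in NAM/PN 4. Ndufa1, a small membrane subunit, had the lowest fold change of the complex, with 133, 80.6, 46.8 and 88.4 CPM with vehicle and 80.4, 56.4, 66.4 and 46.8 CPM with NAM/PN (log2 fold change -0.48, SE 0.27, adjusted p = 0.675). Its fold change ran from -0.70 without vehicle 3 to -0.21 without vehicle 1, and was -0.58 without vehicle 3 and NAM/PN 4. Ndufs4 and Ndufa13 were lower with NAM/PN in all 4 pools, with log2 fold changes of -0.36 (SE 0.20) and -0.26 (SE 0.17) and overlapping ranges.

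Complex II, the succinate dehydrogenase, is the only one of the 5 without a mitochondrially encoded subunit. Its membrane anchor Sdhd (ENSMUSG00000000171) had 163, 158, 90.2 and 110 CPM in vehicle 1 to 4 and 192, 168, 199 and 195 CPM in NAM/PN 1 to 4. The 2 sets of libraries did not overlap and NAM/PN was higher in 4 of 4 pools, by 0.53 on the log2 scale (SE 0.20, 95% interval 0.11 to 0.95). The log2 fold change ran from 0.39 without vehicle 3 to 0.66 without vehicle 1, and was 0.36 without vehicle 3 and NAM/PN 4. The unadjusted p was 0.0162 and the adjusted p 0.332, and the adjusted p ran from 0.232 to 0.685 over the alternatives, so the gene did not pass. The other 3 subunits gave no such separation, and the median of the complex was -0.031, or -0.043 without vehicle 3 and NAM/PN 4 and 0.022 with library totals. Sdhc, the other membrane anchor, had 222, 217, 101 and 196 CPM with vehicle and 199, 190, 151 and 102 CPM with NAM/PN, lowest in vehicle 3 and NAM/PN 4 (log2 fold change -0.20, SE 0.25, adjusted p = 0.926). Its fold change was -0.41 without vehicle 3, -0.032 without NAM/PN 4 and -0.24 without both. Sdha, the flavin subunit, had 251, 248, 242 and 218 CPM with vehicle and 240, 230, 245 and 211 CPM with NAM/PN, and its standard deviation within conditions of 0.094 (log2 CPM) was the smallest of all tested members. Its log2 fold change was -0.05 (SE 0.16, adjusted p = 0.984). The iron-sulfur subunit Sdhb ranged from 300 to 428 CPM with vehicle and from 342 to 402 CPM with NAM/PN, with a log2 fold change of -0.01 (SE 0.16, adjusted p = 0.995).

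In complex III, which passes electrons from coenzyme Q to cytochrome c, 6 of 9 subunits had a fold change above 0 and 3 below, with a median of 0.045 that became -0.043 without vehicle 3 and NAM/PN 4, and all 9 intervals lay within 2-fold. Uqcrb, which contributes to coenzyme Q binding, had 110, 91.7, 54.6 and 69.0 CPM with vehicle and 128, 123, 92.0 and 73.4 CPM with NAM/PN. It was higher in all 4 pools while the ranges overlapped (log2 fold change 0.35, SE 0.24, adjusted p = 0.779), and the fold change ran from 0.20 without vehicle 3 to 0.53 when 1 library was left out. The Rieske iron-sulfur protein Uqcrfs1 had 269, 202, 59.2 and 181 CPM with vehicle and 183, 250, 203 and 134 CPM with NAM/PN. Its lowest values again stood in vehicle 3 and NAM/PN 4, and its log2 fold change was 0.11 (SE 0.31, adjusted p = 0.977), or -0.043 without both. Cyc1, which carries the heme of cytochrome c1, ranged from 221 to 244 CPM and from 210 to 291 CPM (log2 fold change 0.06, SE 0.17, adjusted p = 0.982), and the core protein Uqcrc1 from 229 to 301 CPM and from 198 to 323 CPM (log2 fold change -0.10, SE 0.18, adjusted p = 0.963). The fold change of Uqcrc1 ran from -0.27 to -0.014 when 1 library was left out. Uqcrh, the hinge protein and the subunit with the most counts, had a log2 fold change of 0.05 (SE 0.16, adjusted p = 0.986).

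Complex IV, cytochrome c oxidase, had 14 of 15 tested subunits with a fold change below 0, Cox5a being the exception, and a median of -0.13, or -0.37 without vehicle 3 and NAM/PN 4. None passed edgeR's test. The 3 catalytic subunits of this complex come from the mitochondrial genome, and several nuclear ones exist as a ubiquitous and a tissue isoform. The ubiquitous subunits were abundant. Cox4i1, which mediates inhibition by ATP, had 430, 499, 400 and 509 CPM with vehicle and 404, 438, 342 and 559 CPM with NAM/PN (log2 fold change -0.08, SE 0.17, adjusted p = 0.970, running from -0.22 without NAM/PN 4 to 0.022 without NAM/PN 3, and -0.29 without vehicle 3 and NAM/PN 4). Cox5a had 443, 429, 553 and 436 CPM with vehicle and 486, 488, 400 and 542 CPM with NAM/PN (log2 fold change 0.04, SE 0.16, adjusted p = 0.986). In all 8 libraries both differed by less than the spread between them. Cox7c, a small membrane subunit, was lower with NAM/PN in all 4 pools, with 44.8, 58.7, 32.2 and 54.8 CPM against 31.8, 45.0, 21.8 and 31.0 CPM, and its log2 fold change was -0.56 (SE 0.29, adjusted p = 0.620).

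The member whose conditions lay farthest apart was Cox8b (ENSMUSG00000025488, GRCm38 chr7:140898945-140900446, minus strand), the heart and skeletal muscle isoform of subunit 8. Vehicle 1 to 4 had 34, 41, 36 and 56 counts, or 4.03, 5.09, 4.45 and 6.09 CPM, and all 4 NAM/PN libraries had 0. A floor of 3 counts per NAM/PN library, 0.381 CPM on average, put Cox8b at least 12.9-fold lower with NAM/PN, from a vehicle mean of 4.91 CPM. Its adjusted p was 0.0736 with edgeR, 0.261 with the pool as a replicate block and 8.75e-05 with DESeq2, and it lay between 0.111 and 0.262 in edgeR when 1 library was left out. The call therefore turned on the tool. Cox8b is a gene of few counts, and its fitted log2 fold change depends on the prior count.

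The ubiquitous counterpart Cox8a had 718, 451, 162 and 551 CPM with vehicle and 405, 413, 410 and 227 CPM with NAM/PN (log2 fold change -0.37, SE 0.30, adjusted p = 0.834). Its fold change was -0.10 without vehicle 1, -0.66 without vehicle 3, -0.20 without NAM/PN 4 and -0.49 without both. Within a library, the log2 ratio of Cox8b to Cox8a counts was -7.48, -6.47, -5.19 and -6.50 in vehicle 1 to 4. With Cox8b at the floor of 3 counts, it was at most -10.1, -9.95, -9.81 and -9.66 in NAM/PN 1 to 4, so that the mean ratio was at least 11.1-fold lower with NAM/PN, in 4 of 4 pools. At this bound the exact two-sided permutation p was 0.0286, the smallest that 70 assignments of 4 and 4 libraries can give, and 0.0857 after adjustment over the 3 pairs measured. Cox8b passed the filter on low counts only through the vehicle libraries, so this p restates that separation and is no further support. With the pairing by pool kept, the exact sign-change p of the ratio was 0.125, the smallest that 4 pools allow. The difference of -4.18 obtained with a prior count of 2 depends on that prior, since every NAM/PN library held 0 counts. The other 2 pairs did not separate. Cox7a1, the muscle isoform of subunit 7a, had 4.74, 8.06, 2.59 and 4.57 CPM with vehicle and 2.46, 9.06, 0 and 4.11 CPM with NAM/PN, and its log2 ratio to Cox7a2 differed by -0.98 (exact permutation p = 0.629, adjusted 0.80). Cox6a2, the muscle isoform of subunit 6a, had 6.04, 0.496, 0 and 5.55 CPM with vehicle and 1.23, 2.37, 0 and 1.77 CPM with NAM/PN, and its log2 ratio to Cox6a1 differed by -0.36 (exact permutation p = 0.80, adjusted 0.80). Cox7a2 and Cox6a1 themselves had log2 fold changes of -0.13 (SE 0.15, adjusted p = 0.917) and -0.10 (SE 0.16, adjusted p = 0.954), the latter -0.24 without vehicle 3 and NAM/PN 4. Cox6b2, known from testis, was lower with NAM/PN in all 4 pools, with 5.45, 17.9, 15.6 and 4.46 CPM against 1.60, 8.64, 10.8 and 2.05 CPM, pool 2 and 3 being high in both conditions (log2 fold change -0.91, SE 0.79, adjusted p = 0.859, or -0.41 without vehicle 3 and NAM/PN 4). The 95% intervals of the log2 fold change were wide at these counts, from -4.77 to 2.45 for Cox6a2, from -2.94 to 2.24 for Cox7a1 and from -2.56 to 0.74 for Cox6b2. The 4 tested tissue isoforms together summed to 20.2 to 31.5 CPM with vehicle and 5.29 to 20.1 CPM with NAM/PN.

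**Figure D3:**
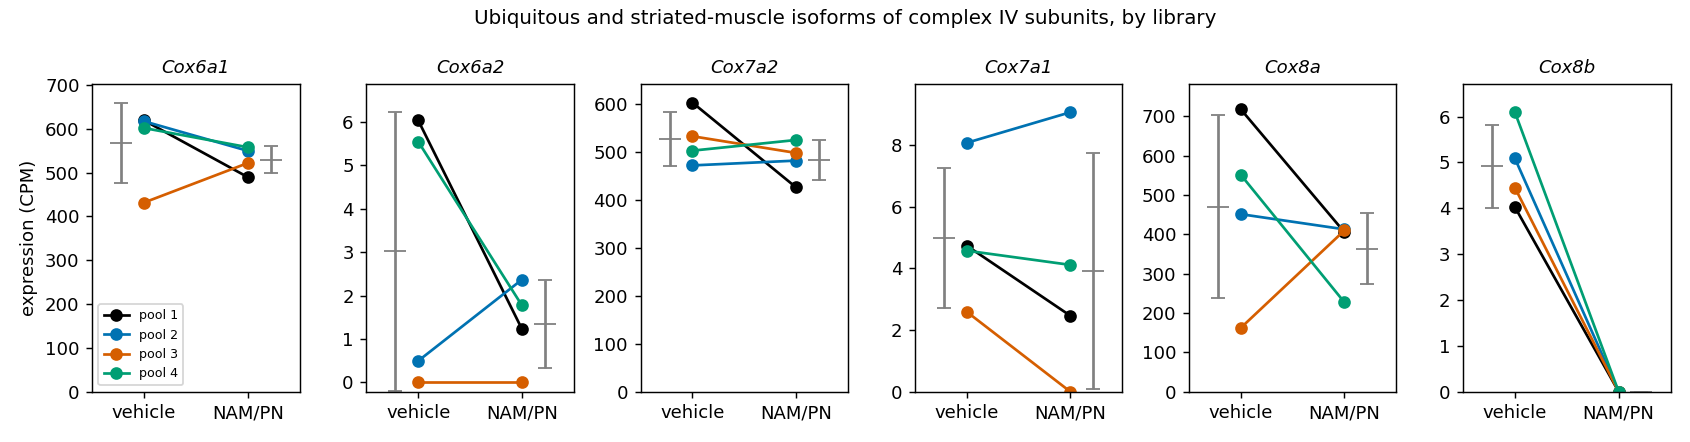
Expression in CPM of the ubiquitous (Cox6a1, Cox7a2, Cox8a) and striated muscle (Cox6a2, Cox7a1, Cox8b) isoforms of 3 complex IV subunits in each library, with lines joining the libraries of a pool and grey bars giving mean ± SD (n = 4), each panel on its own scale. Cox8b lies between 4.03 and 6.09 CPM with vehicle and at 0 in all 4 NAM/PN libraries, while the other 5 genes overlap.

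The 250 bases upstream of Cox8b (chr7:140900447-140900696, minus) and of Cox8a (chr19:7217617-7217866, minus) are shown side by side, since the pair encodes the same subunit and differed in the libraries. Capitals mark CG dinucleotides, 1 in Cox8b and 11 in Cox8a.
Cox8b: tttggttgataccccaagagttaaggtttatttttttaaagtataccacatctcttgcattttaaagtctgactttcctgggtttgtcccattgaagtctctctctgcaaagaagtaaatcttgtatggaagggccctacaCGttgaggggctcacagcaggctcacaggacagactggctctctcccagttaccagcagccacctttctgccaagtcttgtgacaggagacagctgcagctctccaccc
Cox8a: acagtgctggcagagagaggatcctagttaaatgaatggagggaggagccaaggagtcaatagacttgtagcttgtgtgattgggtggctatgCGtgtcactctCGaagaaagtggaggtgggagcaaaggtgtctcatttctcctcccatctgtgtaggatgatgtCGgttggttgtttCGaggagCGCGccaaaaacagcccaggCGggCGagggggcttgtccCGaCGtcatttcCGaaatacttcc
The RefSeq window of Cox8b held 2 CG dinucleotides, the fewest of the 79 member windows. It held neither the NRF1 nor the ETS letters, which most member windows also lacked, and it held 2 E-boxes and 1 TATAAA. The window of Cox8a held 19 CG dinucleotides, 0 NRF1 matches, 2 ETS matches, 1 E-box and 0 TATAAA.

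Genes of differentiated muscle were lower with NAM/PN. Of 20 such markers, 20 had a fold change below 0, against 50.2% of all genes, with a median log2 fold change of -2.37. At an adjusted p of 0.05 in edgeR's test, 15 fell with NAM/PN (17 with the pool as a block), against 0.995% of all genes. Their summed level was 2456 to 4522 CPM with vehicle and 582 to 1458 CPM with NAM/PN, without overlap. The 15 were Acta1, Mylpf, Myl1, Myl4, Myh1, Myh3, Mymk, Mymx, Myog, Tnnc1, Tnnc2, Tnni1, Tnnt1, Tnnt2 and Tnnt3, which encode contractile proteins, the fusion factors Mymk and Mymx and the myogenic factor Myog. Acta1, the actin of skeletal muscle fibres, fell by 2.70 on the log2 scale (SE 0.41, adjusted p = 0.000974), and the embryonic myosin Myh3 fell by 2.33 (SE 0.30, adjusted p = 0.000232). Mural markers were also lower in sum, at 285 to 611 CPM against 95.9 to 156 CPM, with 1 of 3 tested (Acta2, also made by differentiating myoblasts) called lower. The 4 fibro-adipogenic markers tested were split, with a median log2 fold change of 0.26. Col3a1 fell by 1.17 and Gsn fell by 2.60 on the log2 scale, whereas Col1a1 and Col1a2 had fold changes of 4.97 (SE 1.30, adjusted p = 0.0709) and 1.68 (SE 0.74, adjusted p = 0.477). Col1a1 ranged from 1.74 to 41.3 CPM with vehicle and from 3.27 to 1032 CPM with NAM/PN. The list summed to 283 to 350 CPM and 86.5 to 1233 CPM, with Pdgfra, Dpt and Lum at 0 in every library. The part of these cell states or cell types in the values of Cox8b was not tested.

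Complex V, the ATP synthase, had 16 subunits tested, 9 with a fold change above 0 and 7 below, with a median of 0.029 that became -0.13 without vehicle 3 and NAM/PN 4, and none passed. Atp5g3, which encodes subunit c of the rotor ring and had the most counts of all members, had 2863, 2470, 1162 and 2598 CPM with vehicle and 2316, 2322, 2680 and 2057 CPM with NAM/PN. Vehicle 3 stood apart, and the log2 fold change of 0.04 (SE 0.20, adjusted p = 0.987) became -0.12 without vehicle 3 and NAM/PN 4. Atp5g1 and Atp5g2 encode the same mature subunit and gave 32.2 to 60.2 CPM and 1.36 to 10.4 CPM over the 8 libraries. The catalytic beta subunit Atp5b had 1023, 1083, 760 and 917 CPM with vehicle and 786, 819, 751 and 952 CPM with NAM/PN, lower in 3 of 4 pools (log2 fold change -0.19, SE 0.15, adjusted p = 0.825), running from -0.29 without vehicle 3 to -0.12 without vehicle 2, and -0.37 without vehicle 3 and NAM/PN 4 (adjusted p = 0.0925). The alpha subunit Atp5a1 had 1330, 1175, 1033 and 1357 CPM and 1040, 1120, 1282 and 1219 CPM (log2 fold change -0.07, SE 0.14, adjusted p = 0.967). Its fold change ran from -0.15 without vehicle 3 to -0.0205 without NAM/PN 1, and was -0.17 without vehicle 3 and NAM/PN 4. Over all 8 libraries, neither the difference in Atp5b nor that in Atp5a1 exceeded the spread between libraries.

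The extremes of complex V were both subunits of the peripheral stalk, which holds the catalytic head in place. Atp5h (subunit d) had 87.7, 72.3, 37.2 and 133 CPM with vehicle and 116, 128, 76.0 and 142 CPM with NAM/PN. It was higher with NAM/PN in all 4 pools with overlapping ranges, and its log2 fold change was 0.48 (SE 0.29, adjusted p = 0.721) or 0.58 with the pool as a replicate block (adjusted p = 0.334). It was 0.23 without vehicle 3 and 0.12 without vehicle 3 and NAM/PN 4, and from 0.23 to 0.80 when 1 library was left out. Atp5j (subunit F6) had 273, 178, 65.5 and 204 CPM with vehicle and 121, 177, 190 and 69.96 CPM with NAM/PN, lowest in vehicle 3 and NAM/PN 4 (log2 fold change -0.37, SE 0.33, adjusted p = 0.867). Its fold change was -0.10 without vehicle 1, -0.65 without vehicle 3, -0.15 without NAM/PN 4 and -0.43 without both.

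The low values of vehicle 3 and NAM/PN 4 recurred across complexes, a pattern described after the values were seen. These were the 2 lowest of the 8 libraries in 12 of the 72 members with an average log2 CPM above 6 (16.7%), against 215 of the 2968 other genes of that abundance (7.24%). With 28 possible pairs of libraries, an even spread would give 3.57%. Other pairs were also frequent among the members: NAM/PN 1 and NAM/PN 3 were the lowest in 10 (13.9%, against 5.23% of all genes of that abundance) and vehicle 3 and NAM/PN 1 in 9 (12.5% against 4.38%). The 12 members were Ndufa1, Ndufb3 and Ndufc2 of complex I, Sdhb and Sdhc of complex II, Uqcrc2 and Uqcrfs1 of complex III, Cox7b and Cox8a of complex IV, and Atp5g3, Atp5j and Atp5mpl of complex V. Atp5j showed it most, with 65.5 and 69.96 CPM in these libraries and 121 to 273 CPM in the others, followed by Cox8a with 162 and 227 CPM against 405 to 718 CPM. The same libraries were instead the highest in other members, such as Cox5a at 553 and 542 CPM against 400 to 488 CPM and Atp5o at 672 and 769 CPM against 386 to 566 CPM. The share of the single ribosomal RNA gene described above was the highest of all libraries in vehicle 3 and the lowest in NAM/PN 4, and its part in the pattern was not tested.

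**Figure D4:**
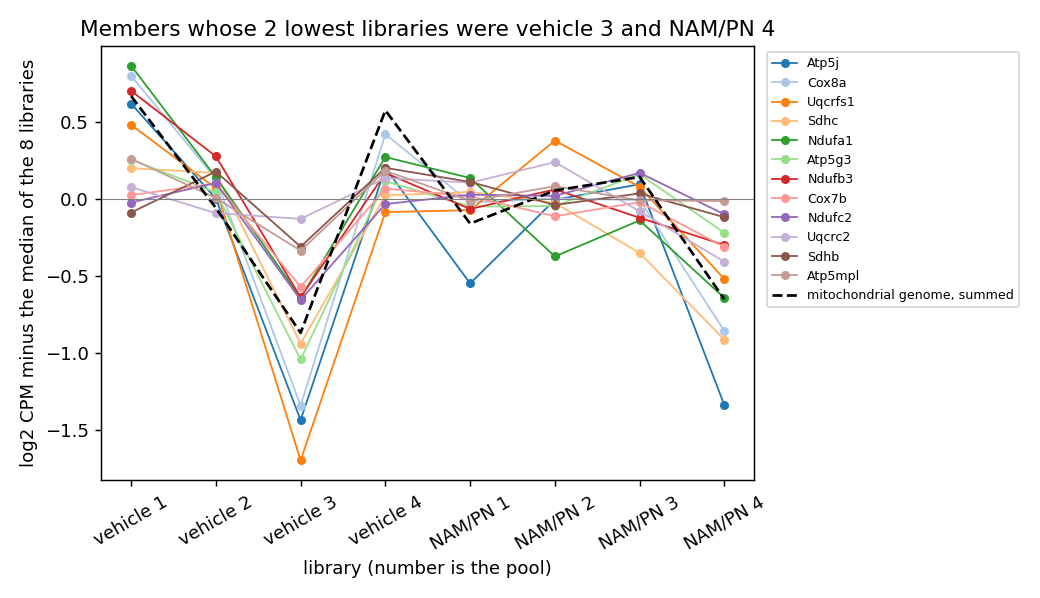
Expression of the 12 members that were lowest in vehicle 3 and NAM/PN 4, and the sum of the subunits read from the mitochondrial genome (dashed), as log2 CPM minus the median of the 8 libraries, with lines only joining the points of a gene. Atp5j, Cox8a, Uqcrfs1 and Atp5g3 show the deepest dip in vehicle 3, and the dashed line is lowest in the same 2 libraries.

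The subunits read from the mitochondrial genome followed the same libraries. Summed, they had 43131, 26033, 14816 and 40417 CPM in vehicle 1 to 4 and 24259, 28163, 29942 and 17233 CPM in NAM/PN 1 to 4. The means of 31099 CPM ± 13196 and 24899 CPM ± 5635 (SD, n = 4) differed by less than the spread between libraries, with a ratio of 0.801, or 0.752 without vehicle 3 and NAM/PN 4. Of the 13 genes, 7 were tested, all with log2 fold changes below 0, with a median of -0.39, and 0 passed (1.28% of all genes did). The counts list 0 in every library for mt-Co2, mt-Co3, mt-Atp6, mt-Atp8, mt-Nd3 and mt-Nd4l, so the balance between nuclear and mitochondrial subunits of complexes IV and V could not be followed for them.

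The genes caught by the rule without being subunits had 8 of 10 fold changes above 0, with a median of 0.21, and none passed. The assembly factor Ndufaf7, an arginine methyltransferase, had 15.9, 13.6, 6.55 and 16.3 CPM with vehicle and 20.2, 21.9, 19.6 and 22.2 CPM with NAM/PN, without overlap (log2 fold change 0.68, SE 0.41, adjusted p = 0.725). Ndufaf3, an early assembly factor of complex I, had 12.2, 28.7, 21.6 and 21.1 CPM with vehicle and 5.29, 6.27, 12.9 and 10.7 CPM with NAM/PN. It was lower in all 4 pools, by 1.24 on the log2 scale, but did not pass (log2 fold change -1.24, SE 0.47, adjusted p = 0.337). Cox7a2l, which takes part in joining complexes III and IV into supercomplexes, ranged from 52.7 to 80.0 CPM and from 67.0 to 117 CPM (log2 fold change 0.46, SE 0.23, adjusted p = 0.583).

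The wider pathway was read from lists of named genes. Of 39 tested assembly factors of the 5 complexes, 20 had a fold change above 0 and 0 passed, with a median of 0.018. Of 14 enzymes of the TCA cycle, which feeds NADH and succinate to the chain, 5 were above 0 and 0 passed, with a median of -0.083. Of 17 genes of the mobile carriers and of coenzyme Q synthesis, 9 were above 0 and 0 passed, with a median of 0.092. Of 15 tested regulators of mitochondrial biogenesis, 8 were above 0 and 0 passed, with a median of 0.014. Among them, the coactivator Ppargc1a averaged 19.4 CPM ± 2.78 in vehicle and 11.7 CPM ± 8.57 in NAM/PN libraries (log2 fold change -0.74, SE 0.54, adjusted p = 0.80). Its partner Esrra had 30.05 CPM ± 11.2 and 17.4 CPM ± 3.64, lower in 4 of 4 pools with overlapping ranges (log2 fold change -0.79, SE 0.37, adjusted p = 0.521). Nrf1, whose letters stand in the promoters shown above, had 58.0 CPM ± 15.2 and 58.6 CPM ± 4.01 (log2 fold change 0.01, SE 0.24, adjusted p = 0.995), and Tfam, which packs and transcribes mitochondrial DNA, 56.1 CPM ± 8.45 and 68.5 CPM ± 18.5 (log2 fold change 0.28, SE 0.24, adjusted p = 0.849).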

How the data were processed

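The values deposited by the authors are raw read counts for each gene in 8 libraries, not normalized or filtered. Libraries were made from 3′ ends with a QuantSeq kit, and reads were aligned to GRCm38 with RNASTAR and counted with htseq-count (HTSeq 2.16.2 in the submitters' processing notes). The annotation release, the strand setting and the treatment of reads that match several places are not given in the sources used here, so counts of subunit genes with near-identical copies or processed pseudogenes, and of overlapping genes, are uncertain. Positions and biotypes came from release M21 of GENCODE mouse, which held 55227 of the 55487 identifiers.

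Tests were run with edgeR 4.0.16 and, as an alternative, DESeq2 1.42.0, under R 4.3.3, and figures were drawn with matplotlib 3.10.9 in Python 3.11.15. Genes were filtered with filterByExpr (minimum count 10, minimum total 15), normalized by TMM and compared by the quasi-likelihood test of edgeR. P-values were adjusted after Benjamini and Hochberg across the 12060 genes tested, and an adjusted p under 0.05 was called. Log2 CPM used a prior count of 2. The test was tried on simulated data first. Totals were 6472484 to 10163101 counts, and 3 counts, the floor of detection, were 0.28 to 0.457 CPM; floors cover counting error only. Pools are named in the labels and pair the conditions, since the same number marks the same mice; deviations of same-pool libraries correlated between -0.033 and 0.031. No pair of libraries matched within sampling noise (lowest chi-square per degree of freedom 22.6).

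Genes were named by rule: any called member; in each complex the member with the smallest p, those with the highest and lowest fold change where average log2 CPM reached 3, and the one with the most counts; the catalytic or defining subunits, of which 1 is not reported here; the isoform pairs of complex IV; called genes of the other lists (with values for Acta1 and Myh3, picked as examples after the values were seen, and for Col3a1 and Gsn); and Ppargc1a, Nrf1, Esrra and Tfam. Ndufb8, Ndufs4, Ndufa13, Cox7c, Atp5g1, Atp5g2, Atp5o, Ndufaf3, Ndufaf7, Cox7a2l, Pax7, Col1a1, Col1a2 and the other members lowest in vehicle 3 and NAM/PN 4 were named after their values were seen. The members and lists were chosen with earlier results of these data known. Alternatives were the pool as a block, DESeq2, other scalings, no filter, thinned counts, a threshold of 0.10 and leaving out each library.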

Additional observations from a re-analysis of the deposited data

Results flagged for a closer look

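In 6 of 72 groups of 4 libraries, 1 library lay farther from the other 3 than Dixon's 95% limit for the ratio of its gap to the range of the group, where chance alone would give about 3.6. All 6 involved vehicle 3 or NAM/PN 4. In the vehicle group, Cox5a had 553 CPM in vehicle 3 against 429 to 443 CPM in the others (ratio of gap to range 0.8851), and Cox6a1 had 432 CPM in vehicle 3 against 602 to 619 CPM (0.9072). With NAM/PN, Cox8a had 227 CPM in NAM/PN 4 against 405 to 413 CPM (0.9599), and Ndufa2 had 593 CPM in NAM/PN 4 against 337 to 366 CPM (0.8862). The summed level of complex I was 6906 CPM in NAM/PN 4 against 5721 to 5830 CPM (0.9081). The log2 ratio of Cox8b to Cox8a was -9.88 in NAM/PN 4 against -10.7 in the other 3 (0.9695); Cox8b was at 0 in all 4, so this ratio moves with Cox8a and library depth.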

How the results depend on the processing

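The count of members called was 0 in either direction under the pool block, both other scalings, without ribosomal RNA and mitochondrial genes, without the filter, in thinned counts and without any 1 library. It was 1 lower (Cox8b) at a threshold of 0.10 and with DESeq2 (adjusted p = 8.75e-05, log2 fold change -7.74), against 0.0529 in edgeR without the filter. With the replicate block, Cox8b had an adjusted p of 0.261, Sdhb moved from -0.011 to 0.0014 on the log2 scale, and the ratio of Cox8b to Cox8a had an exact sign-change p of 0.125, the smallest that 4 pools allow; the block changed no call among the members. Genes called among all genes numbered 154, or 156 with the block, 289 with DESeq2, 366 without the filter and 236 without vehicle 3 and NAM/PN 4 (an alternative added after seeing the data). Without 1 library they numbered 80 (vehicle 2), 87 (vehicle 4), 92 (NAM/PN 1) or, for the other libraries, 125 to 177.

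Leaving out both of those libraries moved the complex I median to -0.22 and turned Atp5g3 to -0.12, Cyc1 to -0.078, Uqcrfs1 to -0.043 and Uqcrh to -0.042. Library totals in place of TMM turned Sdha to 0.0052 and Sdhb to 0.039 and moved the median of all genes to 0.055 and of members to 0.013, so members stayed -0.042 from all genes. Without 1 library at a time, fold changes ran from -0.18 to 0.17 for Atp5g3, -0.22 to 0.022 for Cox4i1, -0.024 to 0.13 for Cox5a, -1.18 to 0.060 for Cox7a1, -0.050 to 0.12 for Cyc1, -0.11 to 0.051 for Sdhb, -0.18 to 0.38 for Uqcrfs1 and -0.084 to 0.13 for Uqcrh. The log2 ratio ran from -1.15 to 0.40 for Cox6a2 over Cox6a1, from -1.67 to 0.12 for Cox7a1 over Cox7a2 and from -4.53 to -3.77 for Cox8b over Cox8a, or at most -3.47 with Cox8b at the floor of 3 counts (added after seeing the data). The medians ran from -0.117 to -0.0197 for all members (-0.117 without vehicle 3), -0.173 to -0.053 for complex I, -0.08 to 0.0088 for II, -0.05 to 0.099 for III, -0.264 to -0.067 for IV and -0.092 to 0.072 for V. The sign changed for complexes II, III and V and stayed below 0 for I and IV. These fits share most of their libraries and the medians were not tested, so no direction is given for any complex. Depth limits what can be said of the tissue isoforms, at 152 to 525 counts over all libraries.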
